A study of Mus musculus with 4 samples.

Results

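The 41 genes described here encode the machinery of autophagy and part of the lysosome, and were read from the list of sites bound by the transcription factor NFIC in mouse pancreas. A gene counted as bound when it was named as the nearest gene of at least 1 peak in the deposited annotation. Of the 41 genes, 22 were the nearest gene of a peak, with 34 peaks among the 15824 of the list, and 19 had no assigned peak. The members were sorted by role into 8 classes, which are the ULK complex, the class III lipid kinase, membrane supply, conjugation, the ATG8 proteins, receptors with the mitophagy kinase Pink1, the lysosome and signalling regulators.

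NFIC belongs to the nuclear factor I family of DNA-binding proteins, and the study asked what it does in the acinar cells that make digestive enzymes. Chromatin immunoprecipitation followed by sequencing (ChIP-Seq) was performed on whole pancreas of wild-type mice, aged 8 to 12 weeks and of a strain labelled only as mixed, with an antibody to NFIC. The labels list 3 NFIC libraries and 1 library of input DNA, and the replicates were merged into 1 peak list. No value per library was therefore analysed, the depth is unknown, and a value below has no replicate error. Whole pancreas holds acinar, ductal, endocrine and stromal cells, and binding in these could not be told apart.

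Macroautophagy encloses cytoplasm in a double membrane and delivers it to the lysosome. The ULK kinase complex and a class III phosphatidylinositol kinase start the process, lipid transfer proteins and ATG9 vesicles feed the growing membrane, and a ubiquitin-like conjugation system couples ATG8 proteins to it. Receptors such as p62 bind both cargo and ATG8 proteins, and TFEB drives transcription of lysosomal genes. Acinar cells make large amounts of secretory protein, and loss of core autophagy genes in the mouse pancreas is known to cause pancreatitis.

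The sequences under 3 of the peaks are shown first, those of *Gabarap*, *Atg14* and *Uvrag*, because they had the highest scores of the member peaks upstream of a start site. All are written on the plus strand of GRCm38 (mm10), 5′ to 3′, each over the 173 bases of the deposited interval. In the *Gabarap* and *Atg14* peaks, capitals mark the arms of a full NFI site, which was searched as TGGC, any 5 bases and GCCA on both strands with at most 1 mismatch over the 8 fixed bases. In the *Uvrag* peak, capitals mark the spaced word CC, any 2 bases, CT, any 2 bases, TGG, which resembles the core bound by the insulator protein CTCF and was searched after the sequence had been seen.
Gabarap, chr11:69990886-69991058: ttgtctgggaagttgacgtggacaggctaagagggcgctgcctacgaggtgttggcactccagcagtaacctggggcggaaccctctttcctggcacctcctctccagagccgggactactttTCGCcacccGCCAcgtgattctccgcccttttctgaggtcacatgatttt
Atg14, chr14:47578175-47578347: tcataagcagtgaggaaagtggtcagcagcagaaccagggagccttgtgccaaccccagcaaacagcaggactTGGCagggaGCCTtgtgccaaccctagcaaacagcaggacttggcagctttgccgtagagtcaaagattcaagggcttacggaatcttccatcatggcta
Uvrag, chr7:99151384-99151556: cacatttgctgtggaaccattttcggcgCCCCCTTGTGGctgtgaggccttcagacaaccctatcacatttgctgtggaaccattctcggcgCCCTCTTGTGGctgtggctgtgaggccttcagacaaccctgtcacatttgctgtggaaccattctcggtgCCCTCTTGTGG

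The best full NFI sites of the other high peaks are given with 9 bases on each side, in the same notation. Those of *Atg9b*, *Dap* and *Pink1* lie in peaks of the upper quartile of the peak score. The site of *Map1lc3b* was added after its value was seen, because it and that of *Dap* were the only sites of members without a mismatch. The site of *Wipi1* was likewise added because, as in *Gabarap*, its GCCA arm runs into the E-box CACGTG.
Atg9b, chr5:24388046-24388076: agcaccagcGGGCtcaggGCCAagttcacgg
Dap, chr15:31212105-31212135: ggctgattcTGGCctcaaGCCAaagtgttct
Pink1, chr4:138325682-138325712: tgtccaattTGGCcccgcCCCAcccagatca
Map1lc3b, chr8:121620967-121620997: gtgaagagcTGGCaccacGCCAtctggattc
Wipi1, chr11:109611966-109611996: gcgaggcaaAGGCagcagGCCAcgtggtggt

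Over all classes, 22 of the 41 members (53.7%, 95% Wilson interval 38.7 to 67.9) had at least 1 assigned peak, and 37.2% of the 21000 protein-coding genes of the annotation did. The study itself names 9 of the 41 as examples of genes bound and regulated by NFIC (*Dap*, *Gabarap*, *Gabarapl1*, *Map1lc3b*, *Pik3c3*, *Pink1*, *Prkaa2*, *Sqstm1* and *Ulk1*). All 9 had a peak, so leaving them out could only lower the share with a peak. Without them 13 of 32 members (40.6%, 25.5 to 57.7) had a peak. This is not a like comparison with the 37.2%, from which no bound genes were left out. A peak from 1000 bp upstream to the transcription start site (TSS) was found at 6 members (14.6%, 6.88 to 28.4), and at 10.7% of all protein-coding genes. Within 1000 bp on either side of the TSS, 10 members (24.4%, 13.8 to 39.3) had a peak, beside 18.1% of all protein-coding genes. Without the genes named by the study these counts were 3 of 32 (9.38%) and 6 of 32. The promoter share was then below that of all protein-coding genes, again with no bound genes left out of the latter. All intervals given here cover counting error only.

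**Figure D1:**
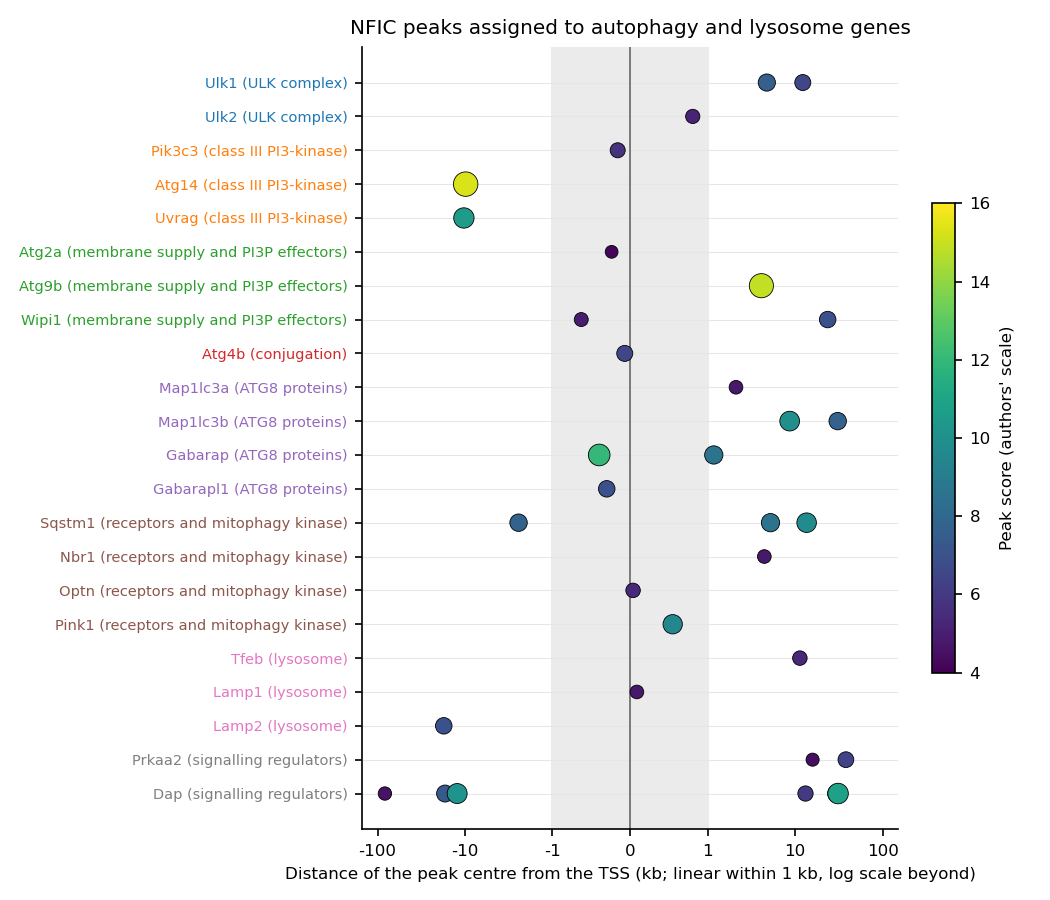
Peaks assigned to the 22 bound genes, with the distance of the peak centre from the TSS in kb on the horizontal axis (negative is upstream, linear within 1 kb and logarithmic beyond) and the gene, coloured by class, on the vertical axis. Larger and lighter points have a higher peak score, the grey band marks 1 kb on either side of the TSS, and the points in it score at most 12.0, while those of *Atg14* (15.3) and *Atg9b* (14.9) lie outside it.

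The classes differed in how many of their genes were assigned a peak. All 4 genes of the receptor class and all 3 lysosomal genes had a peak, as did 4 of the 5 ATG8 genes (80.0%, 37.6 to 96.4) and both signalling regulators. The study names both signalling regulators and 2 of the receptor genes as bound and regulated, which leaves 0 genes in the former class and 2 in the latter that were not chosen in this way. The genes of initiation were in between, with 2 of 5 in the ULK complex and 3 of 5 in the lipid kinase, together 5 of 10 (50.0%, 23.7 to 76.3). Without the genes named by the study, the counts were 1 of 4 in the ULK complex and 2 of 4 in the lipid kinase. In the ATG8 class, 1 of 2 such genes had a peak. Of the 6 genes for membrane supply and lipid binding, 3 had a peak. In the conjugation system, 1 of 11 genes did (9.09%, 1.62 to 37.7), and this interval still includes the 37.2% of all protein-coding genes. Outside conjugation the count was 21 of 30 (70.0%, 52.1 to 83.3), an interval that does not overlap that of conjugation. Without the 9 genes named by the study it was 12 of 21 (57.1%, 36.5 to 75.5), which overlaps it. Leaving out these 9 could only lower the share, since all of them had a peak. Conjugation was the class with the lowest share in these same assignments, so setting it against the rest compares an extreme. Whether the intervals overlap is therefore not a test of a difference between classes.

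**Figure D2:**
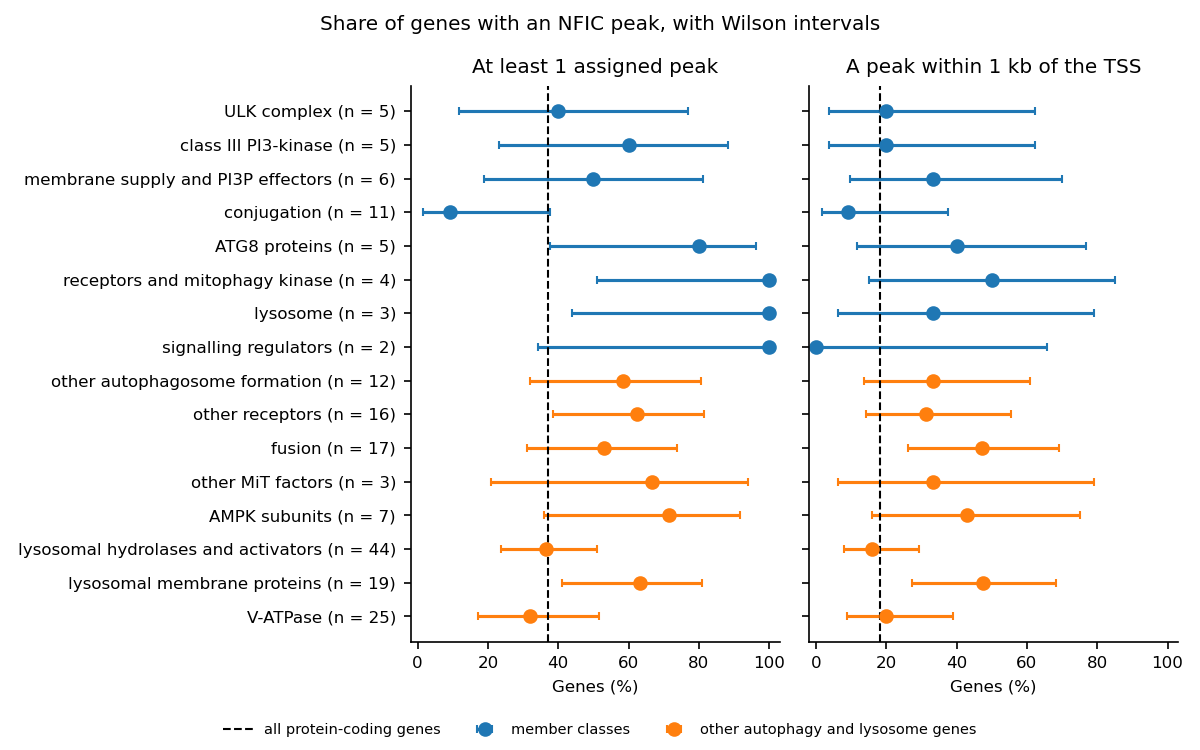
Share of genes (%, points, with 95% Wilson intervals as bars) with at least 1 assigned NFIC peak (left) and that had a peak within 1 kb of the TSS (right), for the 8 classes of the 41 genes (blue) and 8 lists of other autophagy and lysosome genes (orange). The dashed lines are the shares of all protein-coding genes, 37.2% and 18.1%, and the conjugation genes at 9.09% are the lowest class on the left.

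In the ULK complex, peaks were assigned to the genes of the kinases and not to their partners. *Ulk1*, which encodes the kinase that starts autophagosome formation, had a peak in intron 3 of 27 at 4728 bp downstream of the TSS with a score of 7.57. It lay in a B1F repeat. The other *Ulk1* peak lay in intron 5, at 12240 bp, with a score of 6.57. The median score of all peaks was also 6.57, so the *Ulk1* peaks were at or above the middle of the list. *Ulk2*, the paralogue, had a peak at chr11:61854200-61854372 in intron 1 of 26, in a CpG island 806 bp downstream of the TSS, with a score of 5.18. *Rb1cc1* (FIP200), *Atg13* and *Atg101*, the scaffold subunits, had none. The body of *Ulk1* also held a higher peak, with a score of 12.1, that the annotation gives to *Pus1* at 6098 bp upstream of that gene.

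Among the genes of the class III lipid kinase, the highest-scoring peaks of initiation lay about 10 kb upstream of a TSS. *Atg14* directs the kinase to sites of autophagosome formation. Its peak, 9827 bp upstream at the interval shown above, had the highest score of all member peaks (15.3, above 94.4% of the list) and lay in an LTR element annotated as ORR1C1-int. *Uvrag*, which encodes the subunit that replaces ATG14 in the endosomal form of the kinase, had an intergenic peak 10326 bp upstream with a score of 10.6. *Pik3c3* (VPS34), the catalytic subunit, had a promoter peak 160 bp upstream with a score of 5.78, below the median of the list. *Becn1* and *Pik3r4*, the other core subunits, had no assigned peak, and the nearest peaks of any gene lay 24441 bp and 86606 bp from their starts.

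The *Uvrag* peak was built of a repeated unit. A word of 21 bases occurred 3 times in its 173 bases, and the CTCF-like word also occurred 3 times. That word was present in 6 of the 34 member peaks (17.6%, 8.35 to 33.5), namely those of *Uvrag*, *Map1lc3a*, *Wipi1* (at 23496 bp), *Pink1*, *Ulk1* (at 4728 bp) and *Map1lc3b* (at 8641 bp), and in 9.92% of all peaks. The interval of the members includes the share of all peaks. No full NFI site was found in the *Uvrag* window of 200 bp.

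Membrane supply held the weakest and the second strongest of the 34 member peaks. *Atg9b*, which encodes a lipid scramblase of the vesicles that seed the membrane, had a peak in exon 6 of 14 at 4099 bp, with a score of 14.9. *Atg2a*, whose product bridges the endoplasmic reticulum and the growing membrane and transfers lipid, had a promoter peak at chr19:6241344-6241516, 238 bp upstream, with the lowest score of all member peaks (4.18, above 8.34% of the list). *Wipi1*, a reader of the lipid made by the kinase, had a promoter peak at chr11:109611932-109612104, 629 bp upstream, with a score of 4.98 and an intronic peak at 23496 bp with 6.97. Their paralogues *Atg2b*, *Atg9a* and *Wipi2* had no assigned peak. A peak with a score of 3.59 nevertheless lay 210 bp upstream of *Atg2b*, and was assigned to *Gskip*, whose start is 111 bp away on the other strand.

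Conjugation was the class with the fewest assigned peaks. *Atg4b*, which encodes the protease that primes ATG8 proteins and releases them from lipid, had the only one, with a score of 6.57 at chr1:93754878-93755050. The authors' annotation places this peak 69 bp upstream of the start, and the RefSeq copy used here places it 59 bp downstream. *Thap4* starts 67 bp away from *Atg4b* on the other strand, so that the peak lies close to both starts. The other proteases (*Atg4a*, *Atg4c*, *Atg4d*), the E1-like *Atg7*, the E2-like *Atg3* and *Atg10*, and the ATG12–ATG5–ATG16L1 ligase genes (*Atg5*, *Atg12*, *Atg16l1* and the paralogue *Atg16l2*) had none.

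Distances that do not depend on which gene was named put the conjugation genes furthest from a peak, although they come from the same peaks as the assignments. From the TSS of the conjugation genes to the nearest peak of any gene, the median distance was 97.3 kb (range 0.059 to 434.0 kb), and 9 of the 11 lay beyond 20 kb. For the 30 other members the median was 5.9 kb, with 24 within 20 kb, or 9.83 kb with 15 of 21 within 20 kb when the genes named by the study were left out. For all protein-coding genes it was 29.6 kb, with 43.3% within 20 kb. The order of the classes changed with the measure. With any peak in the gene body, conjugation had 3 of 11 genes, ATG8 1 of 5 and the lipid kinase 1 of 5, beside 26.9% of all protein-coding genes. The ULK complex had 2 of 5, membrane supply 3 of 6, receptors 4 of 4, the lysosome 2 of 3 and signalling 2 of 2. Within 5000 bp of a RefSeq TSS, conjugation had 2 of 11, the lipid kinase 1 of 5 and signalling 0 of 2. ATG8 had 3 of 5, and every other class was above the 27.4% of all. *Atg12* was the exception among unassigned conjugation genes, with a peak 1500 bp upstream that was assigned to *Ap3s1* (5.78) and another in its body that was assigned to *Cdo1* (8.17). The large gene *Atg7* held a peak with a score of 17.1 in its body, 141511 bp from its start, that was assigned to *Vgll4*. Gene length was in the opposite order among the members and among genes in general. The 22 bound members had a median span of 28.7 kb and the 19 others one of 36.4 kb, while bound protein-coding genes were longer (27.3 kb) than those with no peak (13.4 kb).

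**Figure D3:**
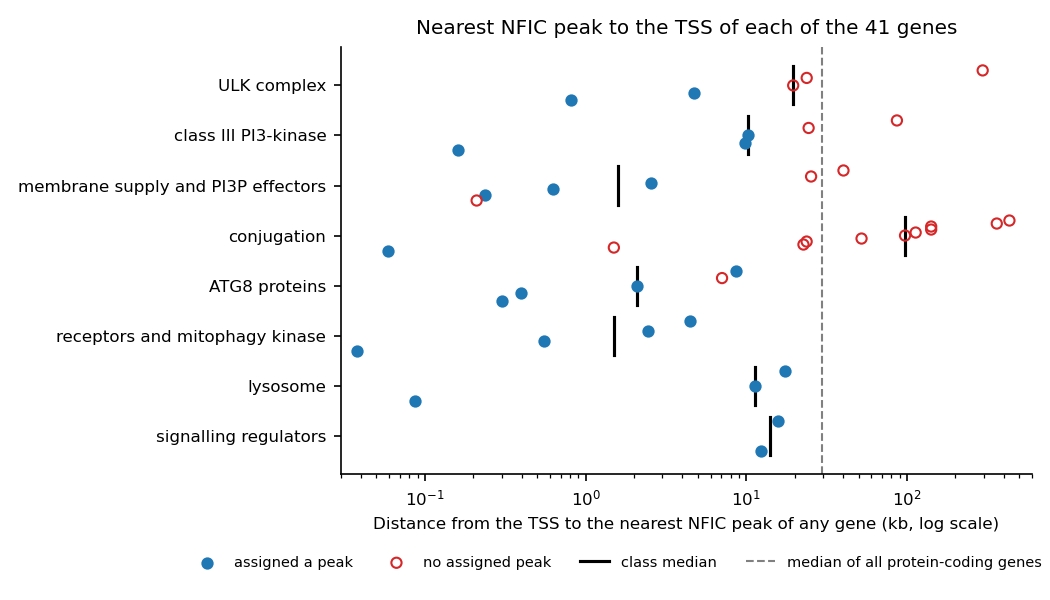
Distance from the TSS of each of the 41 genes to the nearest NFIC peak, whichever gene that peak was assigned to (kb, log scale), by class. Filled points are genes with an assigned peak, open points genes without, black bars the class medians and the dashed line the median of all protein-coding genes (29.6 kb), and 9 of the 11 conjugation genes lie beyond 20 kb.

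The ATG8 genes, by contrast, had 6 peaks at 4 of 5 genes. *Gabarap*, whose product acts late in autophagosome closure and fusion, had the highest promoter peak of all members, 398 bp upstream with a score of 12.0, and a further peak 1167 bp downstream in intron 2 of 3 with 8.56. *Gabarapl1* had a promoter peak at chr6:129532805-129532977, 301 bp upstream, with a score of 6.97, in an exon of the transcript 1700101I11Rik. *Map1lc3b* (LC3B), the ATG8 protein most used to mark autophagosomes, had peaks at 8641 bp (9.96) and 30561 bp (7.77) downstream, which lie in the 3′ UTR and an intron of the neighbouring gene *Zcchc14*. *Map1lc3a* had a weaker peak near its end, at 2096 bp, with a score of 4.78. *Gabarapl2* had none, and the nearest peak lay 7069 bp upstream at *Tmem231*. In this class, 3 of the 4 bound genes are among those named by the study.

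Every receptor gene was assigned a peak, but close to the TSS in only part of them. *Sqstm1*, which encodes p62, had 3 peaks, at 13511 bp (score 9.76, in a B1F repeat within *Mrnip*), 5215 bp (8.56, intron 5 of 7) and −2442 bp (7.77). All 3 were above the median of the list, and none held a full NFI site. *Pink1*, the kinase that marks damaged mitochondria, had a peak at chr4:138325662-138325834 in intron 1 of 7, 548 bp from the TSS, with a score of 9.56, and its body held a peak of 11.4 assigned to *Mir7019*. *Optn*, the receptor recruited in mitophagy, had a peak at chr2:5063993-5064165, 38 bp downstream of the TSS, with a score of 5.38. *Nbr1*, a receptor for ubiquitinated cargo, had a weaker peak (4.78) in intron 4 of 23 at 4435 bp.

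The lysosomal genes had 1 peak each, with low to middling scores. *Lamp1*, a major glycoprotein of the lysosomal membrane, had a peak at chr8:13159162-13159334, centred 87 bp downstream of the TSS, with a score of 4.78. *Lamp2*, its X-linked paralogue, had an intergenic peak 17516 bp upstream with 6.97. *Tfeb*, which encodes the factor that activates lysosomal genes through CLEAR elements, had a peak in intron 1 of 8 at 11264 bp with 5.38. The *Lamp1* peak was the only member peak that held the core of a CLEAR element, TCACGTGA. This core was present in 0.335% of all peaks and in 0.877% of all peaks within 1000 bp of the TSS. Among the peaks of the further autophagy and lysosome genes it was present in 3 of 107 (2.8%, 0.958 to 7.92). The *Lamp1* peak held 2 copies, 19 bases apart, shown here in capitals with 9 bases on each side on the plus strand.
Lamp1, chr8:13159211-13159236: accctcggcTCACGTGAccggcgggc
Lamp1, chr8:13159238-13159263: cggcactgcTCACGTGAcaggcgctg

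The signalling regulators were bound only far from their starts. *Dap* encodes a substrate of mTOR that restrains autophagy, and had 6 peaks, the most of any member. Of all bound protein-coding genes, 4.62% had 5 or more peaks, beside 1 of the 22 bound members (4.55%). A single peak was found at 61.2% of all bound protein-coding genes and at 15 of the 22 bound members. The *Dap* peaks lay at −82529 bp (score 4.58), −16865 bp (7.37), −12298 bp (10.2), 13070 bp (5.98), 29727 bp (8.17) and 30866 bp (10.8), so that none was within 10 kb of the TSS. The last 3 were in intron 2 of 3. The peaks at −12298 bp and 30866 bp, the 2 with the highest scores, lay in repeats annotated as MER58A and ORR1E. *Prkaa2*, the catalytic alpha2 subunit of the energy sensor AMPK, had peaks in intron 1 at 15772 bp (4.38) and 37977 bp (6.37).

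By location, the 34 member peaks resembled the whole list. The peaks from 1000 bp upstream to the TSS were 6 of 34 (17.6%, 8.35 to 33.5), and 15.4% of all peaks lay there. Introns held 16 (47.1%, beside 40.8% of all peaks), intergenic sequence 7 (20.6% beside 30.6%) and annotated repeats 5 (14.7% beside 10.5%), and 15 were further than 10000 bp from the TSS (44.1% beside 50.9%). The intervals of the members included the share of all peaks in each of these. Of the 22 bound members, 12 had no peak within 1000 bp.

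The scores of the member peaks were also like those of the list. Their median was 6.97 (range 4.18 to 15.3), beside 6.57 (3.39 to 68.1) for all peaks, and 21 of 34 (61.8%, 45.0 to 76.1) were in the upper 2 quartiles, which hold 51.6% of all peaks. Member peaks near the TSS had low scores: the 10 within 1000 bp had a median of 5.58, and 3 of them (*Gabarap*, *Pink1* and *Gabarapl1*) were above the median of the list. The 24 further away had a median of 7.67. Over all peaks the medians were 6.37 near the TSS and 6.57 further away, so the gap between near and far was wider among the members, but it was not tested, since the peaks of 1 merged list are not replicates.

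**Figure D4:**
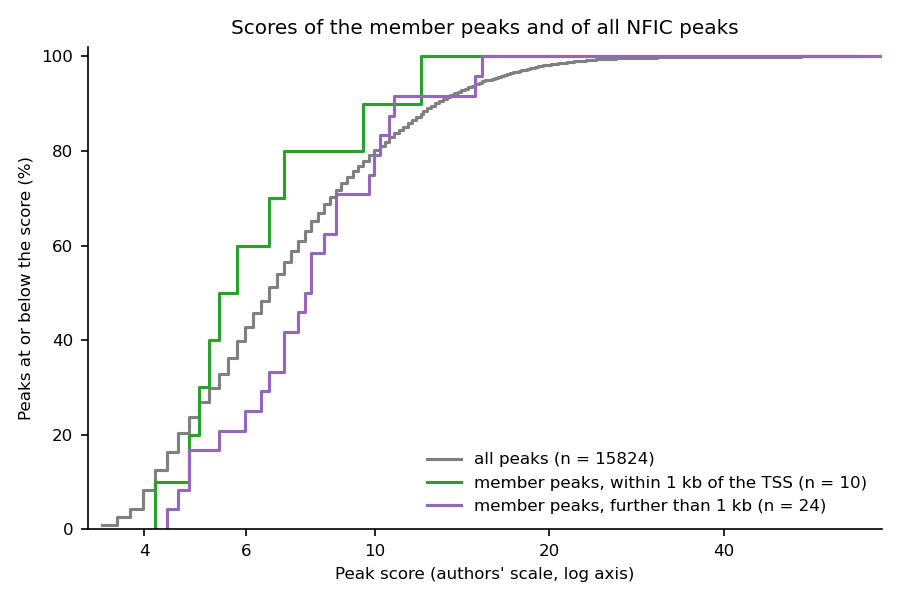
Cumulative share of peaks (%) against the peak score on the authors' scale (log axis), for all 15824 peaks (grey), the 10 member peaks within 1 kb of the TSS (green) and the 24 further away (purple). The green line runs left of the grey one over most of its course, with a median of 5.58, and the purple line runs right of it over most of its lower part, with a median of 7.67.

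A full NFI site was found in the 200-bp window of 18 of the 34 member peaks (52.9%, 36.7 to 68.5), as in 51.8% of all peaks. The 18 peaks belonged to 14 genes, and the other 8 bound members had none. Near the TSS, 6 of 10 member peaks held a site (*Gabarap*, *Gabarapl1*, *Pink1*, *Ulk2*, *Optn* and *Wipi1*), beside 39.0% of all such peaks, and those of *Pik3c3*, *Atg4b*, *Lamp1* and *Atg2a* did not. Of the 9 member peaks in the upper quartile of the score, 5 held a site, those shown above for *Gabarap*, *Atg14*, *Atg9b*, *Dap* and *Pink1*. Exact sites were present in 2 member peaks (5.88%, 1.63 to 19.1), in *Dap* and *Map1lc3b*, and in 13.4% of all peaks. The median score was 6.97 for member peaks with a site and 7.27 for those without.

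E-boxes were found in a larger share of member peaks than of all peaks, a difference that was not tested. The word CACGTG, bound by basic helix-loop-helix factors, was present in 5 of 34 member windows (14.7%, 6.45 to 30.1), those of *Gabarap*, *Lamp1*, *Wipi1*, *Atg9b* and *Dap*, and in 4.60% of all peaks. Peaks of the further autophagy and lysosome genes held it in 9 of 107 (8.41%, 4.49 to 15.2), an interval that overlaps that of the members. In the *Gabarap*, *Wipi1* and *Atg9b* windows the E-box was part of the longer word GCCACGTG, which occurred in 0.929% of all peaks and was counted after the sequences had been seen. The CLEAR core of *Lamp1* contains the same E-box, so these counts overlap. The NFI arm TTGGCA was present in 38.2% of member peaks and 33.7% of all, the SP word GGGCGG in 20.6% and 21.1%, and the NR5A2 word CAAGGTCA in 1 member peak (*Dap*, at 13070 bp) and 2.04% of all. Words were searched on both strands, and a match describes the sequence and not a bound site.

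**Figure D5:**
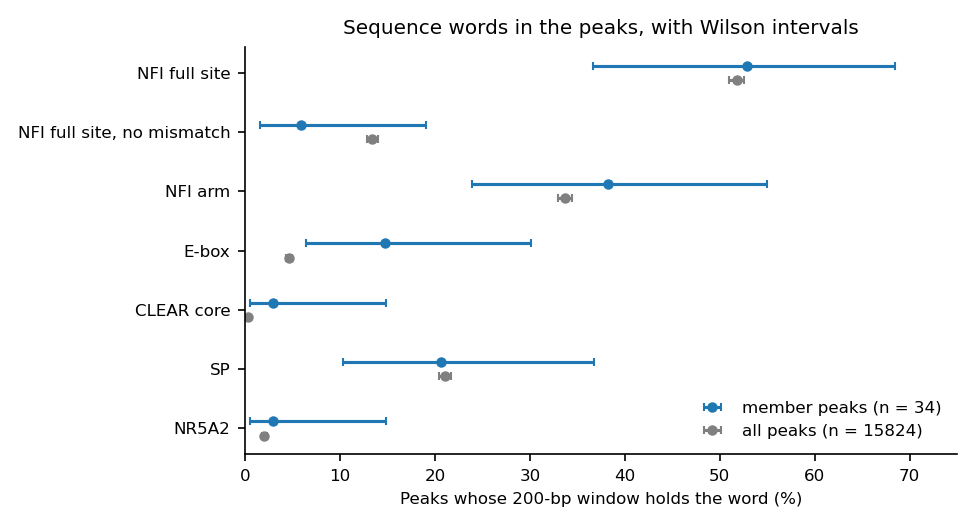
Share of the 34 member peaks (blue) and of all 15824 peaks (grey) whose 200-bp window holds each word (%), with 95% Wilson intervals as bars. The shares of the full NFI site are 52.9% and 51.8%, and that of the E-box is 14.7% in member peaks and 4.60% in all.

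Further genes of autophagy and the lysosome, 143 in 8 lists, had a peak in 69 cases (48.3%, 40.2 to 56.4) and a peak within 1000 bp in 42 (29.4%, 22.5 to 37.3). The larger shares were those of 12 of 19 lysosomal membrane proteins (63.2%, 41.0 to 80.9) and 10 of 16 other receptors (62.5%, 38.6 to 81.5). Next came 7 of 12 other genes of autophagosome formation (58.3%, 32.0 to 80.7) and 9 of 17 fusion genes (52.9%, 31.0 to 73.8). Of the genes for AMPK subunits and their kinase, 5 of 7 had a peak (71.4%, 35.9 to 91.8). The intervals of autophagosome formation, fusion and AMPK include the 37.2% of all protein-coding genes. The soluble hydrolases with their activators, 16 of 44 (36.4%, 23.8 to 51.1), and the proton pump V-ATPase, 8 of 25 (32.0%, 17.2 to 51.6), were close to the 37.2% of all protein-coding genes. *Mitf* and 1 other of the 3 remaining MiT factors had a peak. As with the members, these lists were not tested against other genes.

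*Epg5*, a tether of autophagosomes to lysosomes, had a promoter peak 214 bp upstream with a score of 16.7, higher than any member peak. *Laptm4a*, a lysosomal membrane protein, had a peak at 755 bp with 16.3, and *Sh3glb1*, which binds the UVRAG form of the lipid kinase, had a promoter peak of 11.8. The E-box-binding factor gene *Mitf*, a relative of *Tfeb*, had a peak 22 bp upstream with 5.58. *Stk11* (LKB1), the upstream kinase of AMPK, had a peak at 1670 bp with 13.5, and *Hexa*, a hydrolase, one at 12247 bp with 18.1. *Retreg1*, a receptor for the endoplasmic reticulum, had a promoter peak of 9.76, and *Atp6v1a*, a V-ATPase subunit, one of 8.96.

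Peaks within 1000 bp of the TSS were found in each of these lists. Among fusion genes they were at *Epg5*, *Arl8a*, *Arl8b*, *Plekhm1*, *Ykt6*, *Stx17*, *Vps18* and *Borcs5*, with scores from 3.98 to 16.7, and the highest peak of that list was a further *Arl8a* peak of 17.3 at 7932 bp. The list of membrane proteins had them at *Laptm4a*, *Laptm4b*, *Npc1* and its soluble partner *Npc2*, *Scarb2*, *Mfsd8*, *Tmem55b* and *Slc38a9* (4.58 to 16.3). The hydrolase list had them at *Galc*, *Sgsh*, *Ctsb*, *Smpd1*, *Manba*, *Naglu* and *Gaa* (5.58 to 8.56), and the V-ATPase at *Atp6v1a*, *Atp6v1c1*, *Atp6v0d1*, *Atp6v1h* and *Atp6v1e1* (3.59 to 8.96). For receptors they were at *Retreg1*, *Stbd1*, *Bnip3l*, *Tex264* and *Tax1bp1* (3.59 to 9.76). In autophagosome formation they were at *Sh3glb1*, *Bcl2l1*, *Tecpr1* and *Ambra1* (3.59 to 11.8), with a higher peak of 16.5 at *Wdr45b*, 7215 bp from its TSS. Of the AMPK genes, *Prkaa1*, *Prkag1* and *Prkag2* had them (4.38 to 8.96), whereas the peaks of *Prkaa2* lay beyond 10 kb.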

How the data were processed

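ChIP-Seq libraries of wild-type mouse pancreas (3 for NFIC, 1 of input DNA) were merged by the authors into 1 annotated peak list. The submitters' processing notes name BWA, Picard and MACS2 without versions, the deposited annotation is from HOMER on mm10, and the paper, in a passage on downloaded data, names RUbioSeq+ and HOMER for peak calling and HOMER for merging replicates. The caller of the deposited peaks could not be settled from these sources. Peak-calling thresholds are not given in the sources used here. The deposited peak score is on the authors' own scale, which is not named, and was used to rank peaks only. The deposited focus ratio, the fraction of tags close to a peak's centre, was read but is not reported here. With 0 columns of values per library, depth and replicate error are unknown.

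Members were matched by gene name, and distances were taken from the authors' annotation, negative upstream. The background was all 21000 protein-coding genes with a curated TSS in a RefSeq copy of GRCm38, including genes not expressed in pancreas. For 31 of the 34 member peaks the distances in both annotations were equal within 1 bp. Windows of 200 bp centred on the peaks were searched on both strands for fixed words. Shares carry 95% Wilson intervals, and no test was made. Python 3.11, pandas 2.3.3 and scipy 1.17.1 were used. The search was tested on simulated sequences. The members, lists and words were chosen with earlier results of these data known. Every member is named, and positions are given for those with a peak within 1000 bp of the TSS, apart from *Pik3c3*. Of the further lists, genes with a peak within 1000 bp or the highest peak of their list are named, and some of these are not reported here. Sequence from peaks on chromosome 18 is not reported here.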

Additional observations from a re-analysis of the deposited data

How the results depend on the processing

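With only the peaks of the upper 2 score quartiles, 13 members kept a peak (31.7%, beside 21.9% of protein-coding genes), 3 kept one from 1000 bp upstream to the TSS (7.32%, beside 5.57%) and 21 of the member peaks remained. *Atg4b* is among them only because its score equals the median. Without the 9 members named by the study, an alternative chosen after seeing the data, 13 members had a peak, 3 had one in the promoter window (9.38%, beside 10.7%) and 14 peaks remained. This alternative left out bound members only. Extending the promoter window to 1000 bp downstream raised the members in it to 10. The share of member peaks with a full NFI site was 5.88% with no mismatch and 29.4% in windows of 100 bp, beside 13.4% and 39.4% of all peaks. Among the further lists, the upper 2 quartiles left 6 other receptors, 0 other MiT factors, 10 hydrolases, 6 lysosomal membrane proteins and 5 V-ATPase genes, and counting any peak within 5000 bp of a RefSeq TSS gave 6 other receptors and 1 other MiT factor. The other 23 comparisons stayed within 1.5 times the count or within the interval, among them 17 members with any peak within 5000 bp of a RefSeq TSS (41.5%, beside 27.4% of protein-coding genes) and 18 with any peak in the gene body (43.9%, beside 26.9%). No replicate could be left out of the merged list, and no paired analysis was possible because it holds no value per sample. Unknown depth limits a missing peak to not detected.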

Other observations

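Peaks named after other genes lay in the bodies of 5 members. Besides *Ulk1*, *Pink1*, *Atg7* and *Atg12*, described above, *Atg2a* held a peak with a score of 5.78 that was assigned to *Mir194-2*. Of the 19 members with no assigned peak, 2 (*Atg7* and *Atg12*) held a peak in this way, and among genes without an assigned peak in general the nearest peak lay at a median of 75.7 kb, beside 40.3 kb for these 19.

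Start sites on the opposite strand within 1000 bp were present for 8 members, 4 of them in conjugation (*Atg3*, *Atg4a*, *Atg4b* and *Atg12*). Of the 8, *Atg4b* and *Nbr1* were assigned a peak, beside 22 of all 41 members and 37.2% of all protein-coding genes. The share among protein-coding genes with such a start was not counted, and the difference was not tested. The *Nbr1* peak lay in its intron and not between it and *Brca1*, whose start is 152 bp away.

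The CLEAR core was looked for in the RefSeq promoters (250 bases before to 50 after the start) of the 35 members that matched. It was present in 1 of 40 such promoters, that of *Atg3*, which had no assigned peak, and in 14 of 153 promoters of the further autophagy and lysosome genes (9.15%), beside 1.27% of all. The 2 copies in the *Lamp1* peak, shown above, lie further than 50 bases downstream of its start and were not counted here. Of these 14 genes, 8 had an assigned peak and 6 had none, beside 69 of all 143 further genes (48.3%) with a peak. Among them were *Atp6v0d1*, *Atp6v1a*, *Ctsd*, *Nrbf2* and *Sec62*, which had an assigned peak, and *Mcoln1*, *Gla*, *Ctsa*, *Vps16* and *Clcn7*, which had none. Assignment did not follow distance in all of them. A peak with a score of 10.8 lay 393 bp from a TSS of *Ctsa* but was assigned to *Neurl2*. The body of *Vps16* held a peak of 5.18 that was assigned to *Pced1a*. The nearest peaks of *Nrbf2* and *Sec62* lay 2894 bp and 18696 bp from their starts.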
